A study of Arabidopsis thaliana with 24 samples.

Results

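The transcripts of 8 genes of seedling light signalling were followed in Arabidopsis thaliana: COP1 (AT2G32950), SPA1 (AT2G46340), HY5 (AT5G11260), HYH (AT3G17609), BBX21 (AT1G75540), BBX22 (AT1G78600), BBX24 (AT1G06040) and BBX25 (AT2G31380). They were taken by locus identifier from the deposited table of raw read counts, which holds 33612 features. All 8 had reads in each of the 24 libraries, from 287 reads of HY5 in a hid1 library to 4095 reads of BBX24 in a WT library. All 8 were therefore among the 21897 genes kept by the filter on low counts.

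COP1 is a RING-type ubiquitin ligase that works with SPA proteins and the CUL4-DDB1 scaffold to mark light-signalling proteins for degradation in darkness. HY5, a bZIP transcription factor, and its close relative HYH are among the proteins it removes, and in light they accumulate and bind DNA elements with an ACGT core in the promoters of light-regulated genes. B-box (BBX) zinc finger proteins tune this step: BBX21 and BBX22 promote photomorphogenesis together with HY5, whereas BBX24 and BBX25 interact with HY5 and dampen its activity. Much of this control acts on protein stability, and the values here are transcript levels.

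The libraries came from whole seedlings, 9 days old and kept in unbroken white light, with poly(A) RNA as input and 3 biological replicates for each of 8 genotypes. The genotypes were the bte1 hid1 double mutant, the hid1 phil1 double mutant, the bte1 and hid1 single mutants and Col-0 wild type (WT), and, beside these, the e2fa e2fb e2fc triple mutant (e2f), the bte1 btl1 double mutant and the btl1 single mutant. Per the labels, phil1 is a mutation in the proximal promoter of the HIL1 gene. HID1 is a noncoding RNA gene of light responses, and E2F proteins are cell-cycle transcription factors that take part in the DREAM repressor complex, the subject of the series. The alleles and the number of lines behind each genotype are not given in the sources used here.

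The libraries fell into 2 sets, told apart by which features carry values in the deposited FPKM table (fragments per kilobase, scaled by library): bte1 hid1, hid1 phil1, bte1, hid1 and WT in the first, and e2f, bte1 btl1 and btl1 in the second. Totals were 19309154 to 23912716 counted reads per library in the first set. In the second they were 21270487 to 21885875 in e2f and 14309396 to 15424866 in bte1 btl1 and btl1. HID1 had 0 reads in the 3 hid1 and the 3 bte1 hid1 libraries, which allows up to 3 reads each on counting error alone, 0, 9 and 0 reads in hid1 phil1, and 163 to 215 in WT. In the libraries labelled e2f, E2FA averaged 31.2 CPM (counts scaled to a common library size) and E2FC 47.5 CPM, against 10.07 and 10.3 CPM in btl1. E2FB averaged 5.53 CPM in e2f and 6.90 CPM in btl1. Gene-level counts thus do not check that genotype, and e2f names here the libraries that carry the label. Replicates differed from each other by a chi-square per degree of freedom of 2.86 to 10.7 within 6 genotypes. The values were 20.4 and 20.8 between hid1 phil1 replicate 2 and the other libraries of that genotype, and 15.7 to 34.3 among the e2f libraries.

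The 8 genes lie on 4 chromosomes (TAIR10.1 coordinates from RefSeq; the reads were aligned to TAIR10 per the submitters' processing notes). COP1 is at chr2:13977881-13983609 on the plus strand and SPA1 at chr2:19022154-19027528 on the minus strand. HY5 is at chr5:3593335-3595073 (minus) and HYH at chr3:6023844-6024710 (plus). BBX21 and BBX22 lie on the plus strand of chromosome 1, at chr1:28365824-28367738 and chr1:29566863-29568931. BBX24 is at chr1:1828340-1829983 (minus), where AT1G06045 overlaps 344 bases of it on the other strand. AT1G06045 is not among the features of the count table, so its level could not be set beside that of BBX24. BBX25 is at chr2:13381767-13383470 (plus) and shares 48 bases with AT2G31390 on the other strand. Whether counting used strand is not given in the sources used here, so reads from such overlaps cannot be told apart.

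The stretches just before the annotated starts of BBX24 and HY5 are shown because BBX24 was called in 4 of the comparisons within a library set, more than any other of the 8, and its window is clear of other genes, and because HY5 encodes the factor that binds ACGT cores. Both were read from TAIR10.1 and run 5′ to 3′ on the gene's strand, with the ACGT core in capitals. The BBX24 stretch is chr1:1829984-1830233 (minus, 250 bases) and the HY5 stretch is chr5:3595074-3595273 (minus, 200 bases, up to the neighbouring gene).
BBX24: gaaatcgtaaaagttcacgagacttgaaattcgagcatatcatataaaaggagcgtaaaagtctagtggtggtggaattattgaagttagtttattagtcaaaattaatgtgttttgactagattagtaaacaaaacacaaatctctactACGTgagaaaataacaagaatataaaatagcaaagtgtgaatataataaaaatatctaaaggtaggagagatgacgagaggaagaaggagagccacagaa
HY5: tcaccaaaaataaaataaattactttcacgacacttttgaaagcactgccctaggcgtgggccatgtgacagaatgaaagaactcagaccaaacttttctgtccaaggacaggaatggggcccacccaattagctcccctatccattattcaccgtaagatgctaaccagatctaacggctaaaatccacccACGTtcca
The ACGT core begins 100 bases before the start of BBX24 and 8 bases before that of HY5. In windows of 250 bases before the start, read on both strands, ACGT was present in 5 of the 8 genes (COP1, SPA1, HY5, HYH and BBX24) and in 44.1% of 27443 protein-coding genes. The G-box CACGTG and its variant GACGTG, which both contain the core, were in none of the 8, against 6.49% and 5.89% of the windows. The E2F motifs TTTCCCGC and TTTGGCGC were in none of the 8, against 0.619% and 0.361%. TTTGAA, the letters of the cell-cycle homology region known from animal DREAM targets, was in 5 of the 8 (COP1, HY5, HYH, BBX21 and BBX22) and in 38.8% of all windows. These matches describe letters in a window only, and the windows of BBX25, all but 5 bases, and BBX22, all but 50, lie within neighbouring annotated genes. The TTTGAA of BBX22 falls inside such a gene.

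Per transcript length, BBX24 was the most abundant of the 8 in WT, at 143 ± 9.09 FPKM (SD, n = 3, the authors' values). BBX21 followed at 64.3 ± 5.19, BBX25 at 50.3 ± 3.05 and HYH at 47.8 ± 2.78 FPKM. SPA1 stood at 35.02 ± 2.38, BBX22 at 28.4 ± 1.74, COP1 at 23.4 ± 0.573 and HY5, the lowest, at 18.8 ± 1.34 FPKM. The pair of BBX repressors of HY5 thus had more transcript per length than HY5 itself in WT, and HYH more than HY5. In e2f BBX25 had the lowest mean of the 8, at 17.7 ± 4.79 FPKM, with BBX22 next at 18.2 ± 2.17 FPKM and COP1 at 19.04 ± 1.71 FPKM. The libraries overlapped: in e2f replicate 1 BBX25 had 22.1 FPKM, BBX22 17.05 FPKM and COP1 19.9 FPKM.

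Across the 8 genotypes COP1 varied least and BBX25 most. The highest genotype mean over the lowest, on the CPM scale, was 1.18 for COP1, 1.41 for BBX21, 1.46 for SPA1 and BBX22, 1.54 for HYH, 1.55 for HY5, 1.95 for BBX24 and 2.87 for BBX25. Within the first library set alone this ratio ran from 1.08 for SPA1 and 1.09 for COP1 to 1.44 for BBX24 and 1.48 for BBX25. For COP1, SPA1 and HYH, the libraries of each genotype overlapped with those of the next in the order of means, from the highest to the lowest. For BBX24 the order was bte1 btl1, WT, hid1 phil1, btl1, bte1 hid1, bte1, hid1 and e2f, and hid1 and e2f were the only neighbours without overlap. BBX25 had the order hid1 phil1, WT, bte1 btl1, bte1, btl1, bte1 hid1, hid1 and e2f, with no overlap between btl1 and bte1 hid1, between bte1 hid1 and hid1, or between hid1 and e2f. HY5 ran from e2f through bte1 btl1, btl1, bte1, bte1 hid1, WT and hid1 phil1 to hid1, with breaks on either side of bte1. BBX21 had its break between e2f and bte1 btl1, and BBX22 between hid1 phil1 and bte1. These orders, and the ratios over the 8 genotypes, run across both library sets.

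**Figure D1:**
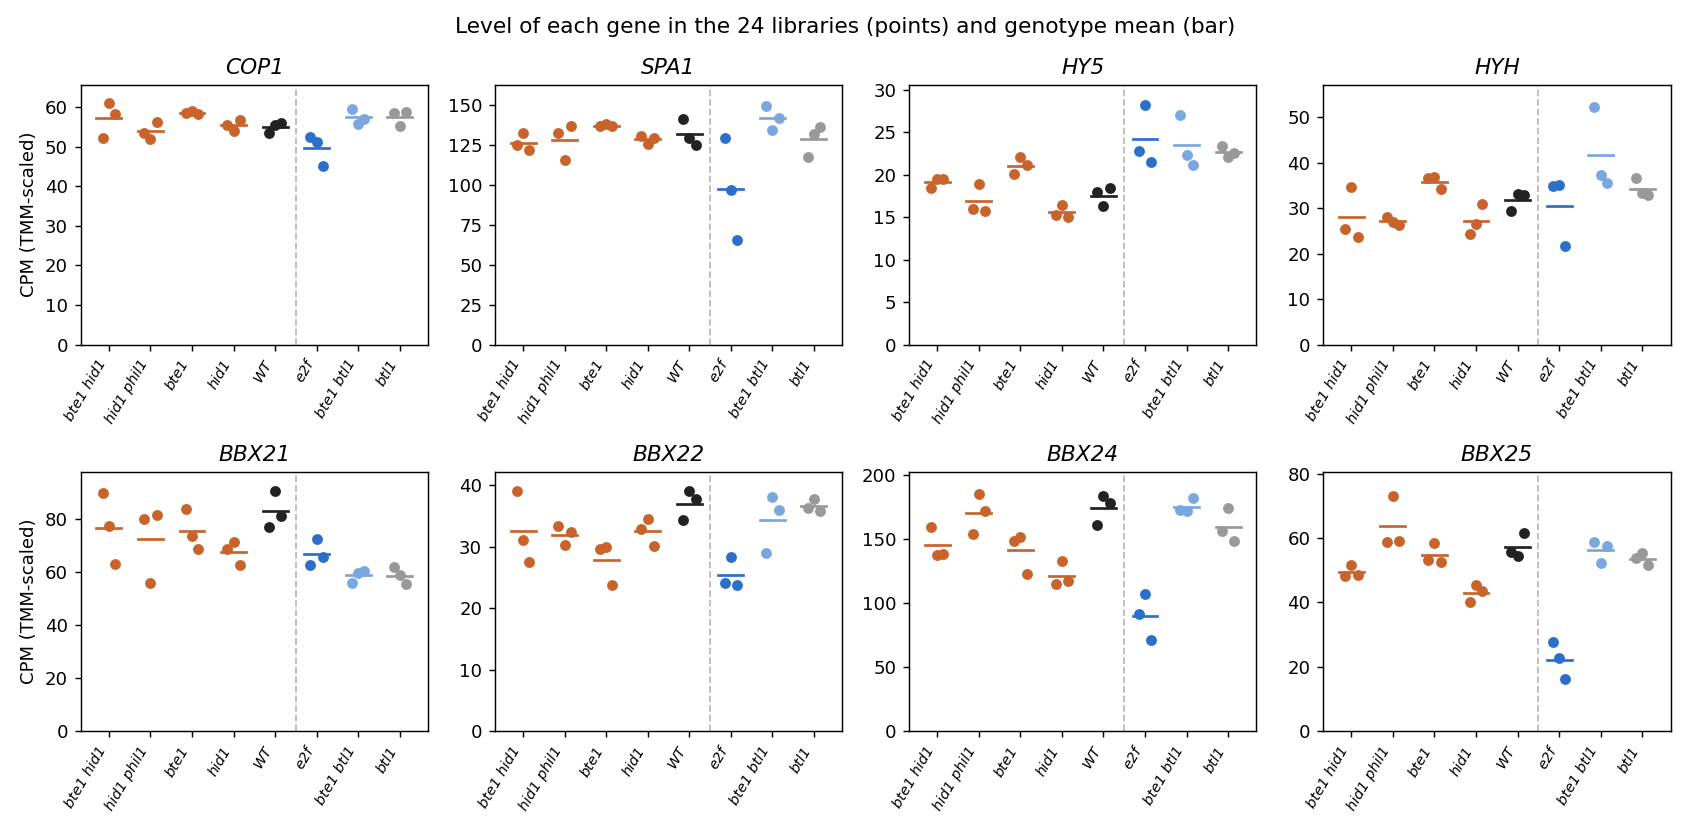
Level of each of the 8 genes in CPM (y axis, linear from 0) in the 24 libraries, by genotype (x axis); points are libraries, bars are genotype means and the dashed line parts the 2 library sets. BBX25 sits between 16.2 and 27.7 CPM in e2f and at 40.2 CPM or more in all other libraries, whereas COP1 stays between 45.2 and 61.1 CPM throughout.

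In hid1 seedlings BBX24 fell to 0.697 of its WT level, and it was the only one of the 8 genes called. BBX24, which encodes a repressor of HY5 activity, had 115, 133 and 117 CPM in hid1, against 162, 184 and 178 CPM in WT. Every hid1 library lay below every WT library (log2 change -0.52, SE 0.113, adjusted p = 0.00918, edgeR quasi-likelihood test with Benjamini-Hochberg adjustment, as for every adjusted p here). The call was past the threshold of 0.05 for 1 of 8 genes, where 3.44% of all genes tested were called in this comparison. It ended without hid1 replicate 1 (adjusted p = 0.0542), hid1 replicate 3 (0.0565) or WT replicate 2 (0.0518), with log2 changes of -0.48 to -0.50.

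BBX25, the closest relative of BBX24 among the 8 in role, had 40.2, 45.4 and 43.5 CPM in hid1, against 55.6, 54.6 and 61.5 CPM in WT. Its libraries did not overlap either, but the adjusted p was 0.0533 (log2 change -0.41, interval -0.65 to -0.17; intervals are 95%). BBX25 passed the threshold with DESeq2 (adjusted p = 0.0302) and with hid1 and WT alone in the fit (0.00586). BBX21, an activator, had 68.7, 71.3 and 62.8 CPM in hid1 and 77.004, 90.7 and 81.5 CPM in WT, again without overlap (log2 change -0.30, SE 0.122, adjusted p = 0.219). The other 5 genes overlapped between hid1 and WT. How many of all genes lacked overlap was not counted, so this is not read as a result about BBX21, BBX24 and BBX25. The 3 had an unadjusted p under 0.05 in edgeR, as had 3448 of the 21897 genes tested. COP1 was closest to no change, with a log2 change of 0.01 and an interval of -0.13 to 0.15. The intervals were -0.33 to 0.25 for SPA1, -0.38 to 0.04 for HY5, -0.57 to 0.11 for HYH and -0.42 to 0.05 for BBX22.

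In hid1 phil1 seedlings, set against hid1, BBX24 and BBX25 rose and the other 6 genes were not called. BBX24 had 154, 186 and 172 CPM in hid1 phil1, against the 115, 133 and 117 CPM of hid1 (log2 change 0.49, SE 0.113, adjusted p = 0.0112). BBX25 had 58.7, 73.2 and 59.2 CPM in hid1 phil1, against 40.2, 45.4 and 43.5 CPM in hid1 (log2 change 0.57, SE 0.118, adjusted p = 0.00544). Neither gene's libraries overlapped between the genotypes, and these 2 of 8 calls stand beside 6.45% of all genes. BBX25 kept its call in all 11 alternative fits, whereas that of BBX24 ended without hid1 phil1 replicate 2 (0.063), hid1 replicate 1 (0.0509) or hid1 replicate 3 (0.0661). The hid1 libraries serve in both comparisons, so the fall against WT and the rise in hid1 phil1 are not independent.

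Against WT, hid1 phil1 had none of the 8 genes called with edgeR, none with DESeq2 and none at an unadjusted p under 0.05, where edgeR called 0.114% of all genes. BBX24 averaged 171 ± 15.7 CPM in hid1 phil1 and 175 ± 11.7 CPM in WT (SD, n = 3 each), and BBX25 63.7 ± 8.22 CPM in hid1 phil1 and 57.2 ± 3.75 CPM in WT. The intervals of the log2 change were -0.27 to 0.20 for BBX24 and -0.09 to 0.40 for BBX25. The highest BBX24 and BBX25 levels of hid1 phil1, 186 and 73.2 CPM, were both in replicate 2, the library that stood apart.

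Markers of other tissues were set beside these changes, since whole seedlings mix tissues and fewer cells of a type cannot be told apart from less RNA per cell. The summed level of 5 green shoot genes was 42099 to 44174 CPM in hid1 and 43718 to 45957 CPM in WT, with none of the 5 called by edgeR or DESeq2 and none at an unadjusted p under 0.05. In hid1 phil1 it was 41599, 55304 and 40695 CPM, the highest in replicate 2, which also had the highest BBX24 and BBX25 levels, and none of the 5 was called against hid1 by either tool, with 1 at an unadjusted p under 0.05. The summed level of 8 root genes was 113 to 119 CPM in hid1, 133 to 160 CPM in hid1 phil1 and 124 to 133 CPM in WT. In hid1 phil1 against hid1, edgeR called 3 of the 8, all higher, and DESeq2 called 5. There 6 of the 8 had an unadjusted p under 0.05 in edgeR. In hid1 against WT, edgeR and DESeq2 each called 1 of the 8 root genes, and 4 had an unadjusted p under 0.05 in edgeR. The gene called by edgeR was NRT2:1, a nitrate transporter gene, which was higher, at 2.66 CPM in hid1 and 0.345 CPM in WT. Only 1 of the 8, NRT2:1, had a positive log2 change, and the median of the 8 was -0.19. Seed storage transcripts summed to 0.997 to 82.5 CPM in hid1, 0.0911 to 1.54 CPM in hid1 phil1 and 0.126 to 0.569 CPM in WT. Of the 6 tested, edgeR called none in hid1 against WT or in hid1 phil1 against hid1, and DESeq2 called 1 in each. In edgeR 2 and 1 had an unadjusted p under 0.05, in the same order. The part of these differences in the BBX24 and BBX25 results was not tested.

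In bte1 seedlings none of the 8 genes was called against WT with edgeR, where 2.52% of all genes were. DESeq2 called 1 of the 8, BBX22, and 3 had an unadjusted p under 0.05 in edgeR (HY5, BBX22 and BBX24). Over all 21897 genes tested, 2626 were under 0.05 unadjusted. BBX22, an activator of photomorphogenesis, had 29.7, 29.9 and 23.7 CPM in bte1, against 34.3, 38.99 and 37.7 CPM in WT, without overlap (log2 change -0.41, SE 0.115, adjusted p = 0.0533). It passed the threshold under 5 alternatives, with adjusted p from 0.0243 to 0.049. HY5 had 20.05, 22.1 and 21.1 CPM in bte1 and 17.9, 16.3 and 18.4 CPM in WT, the bte1 libraries all higher (log2 change 0.26, SE 0.101, adjusted p = 0.23). BBX24 had 149, 152 and 123 CPM in bte1, all below the WT libraries (log2 change -0.31, SE 0.113, adjusted p = 0.203). The green shoot sum was 36263 to 42655 CPM in bte1, also below the 43718 to 45957 CPM of WT, with none of its 5 genes called by edgeR, 1 by DESeq2 and 2 at an unadjusted p under 0.05. The root sum was 131 to 144 CPM in bte1 and 124 to 133 CPM in WT, with 0 of 8 genes called by edgeR or DESeq2 and 1 under 0.05 unadjusted. The part of these differences in the bte1 results was not tested.

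In bte1 hid1 none of the 8 genes was called against WT, hid1 or bte1. Against WT, where 2.40% of all genes were called, edgeR and DESeq2 called 0 of 8 and BBX24 alone had an unadjusted p under 0.05 (log2 change -0.27, interval -0.50 to -0.03). Against hid1, with 7.43% of all genes called, both tools again called 0 of 8, and HY5 and BBX24 were under 0.05 unadjusted. HY5 had 18.4, 19.5 and 19.5 CPM in bte1 hid1, against 15.3, 16.4 and 14.99 CPM in hid1, without overlap (log2 change 0.30, SE 0.102, adjusted p = 0.0785). BBX24 had 159.8, 137 and 139 CPM in bte1 hid1, each above the highest hid1 library, at 133 CPM (log2 change 0.26, SE 0.113, adjusted p = 0.182). Against bte1, with 0.224% of all genes called, 0 of 8 were called by either tool and HYH alone was under 0.05 unadjusted (log2 change -0.36, adjusted p = 0.65). Of all 21897 genes tested, 2466 were under 0.05 unadjusted against WT, 4795 against hid1 and 1563 against bte1. The unadjusted counts among the 8 are therefore not read as a result about these genes. In bte1 hid1 the green shoot sum, 39096 to 41775 CPM, lay below those of hid1 and WT. The root sum, 139 to 154 CPM, lay above the 113 to 119 CPM of hid1, and 4 of the 8 root genes were called higher and 1 lower than in hid1. The part of these differences in the HY5 and BBX24 values was not tested.

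A further contrast took the effect of bte1 in the hid1 background minus its effect in the WT background. It called 0 of the 8 with either tool, beside 0.343% of all genes, and BBX22 and BBX24 had an unadjusted p under 0.05. So had 2641 of the 21897 genes tested. For BBX24 the log2 change with bte1 was 0.26 in the hid1 background and -0.31 in the WT background, a difference of 0.56 (interval 0.23 to 0.89, adjusted p = 0.13). For BBX22 the difference was 0.42 (interval 0.08 to 0.75, adjusted p = 0.291). For COP1 it was -0.05, with an interval of -0.24 to 0.15.

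**Figure D2:**
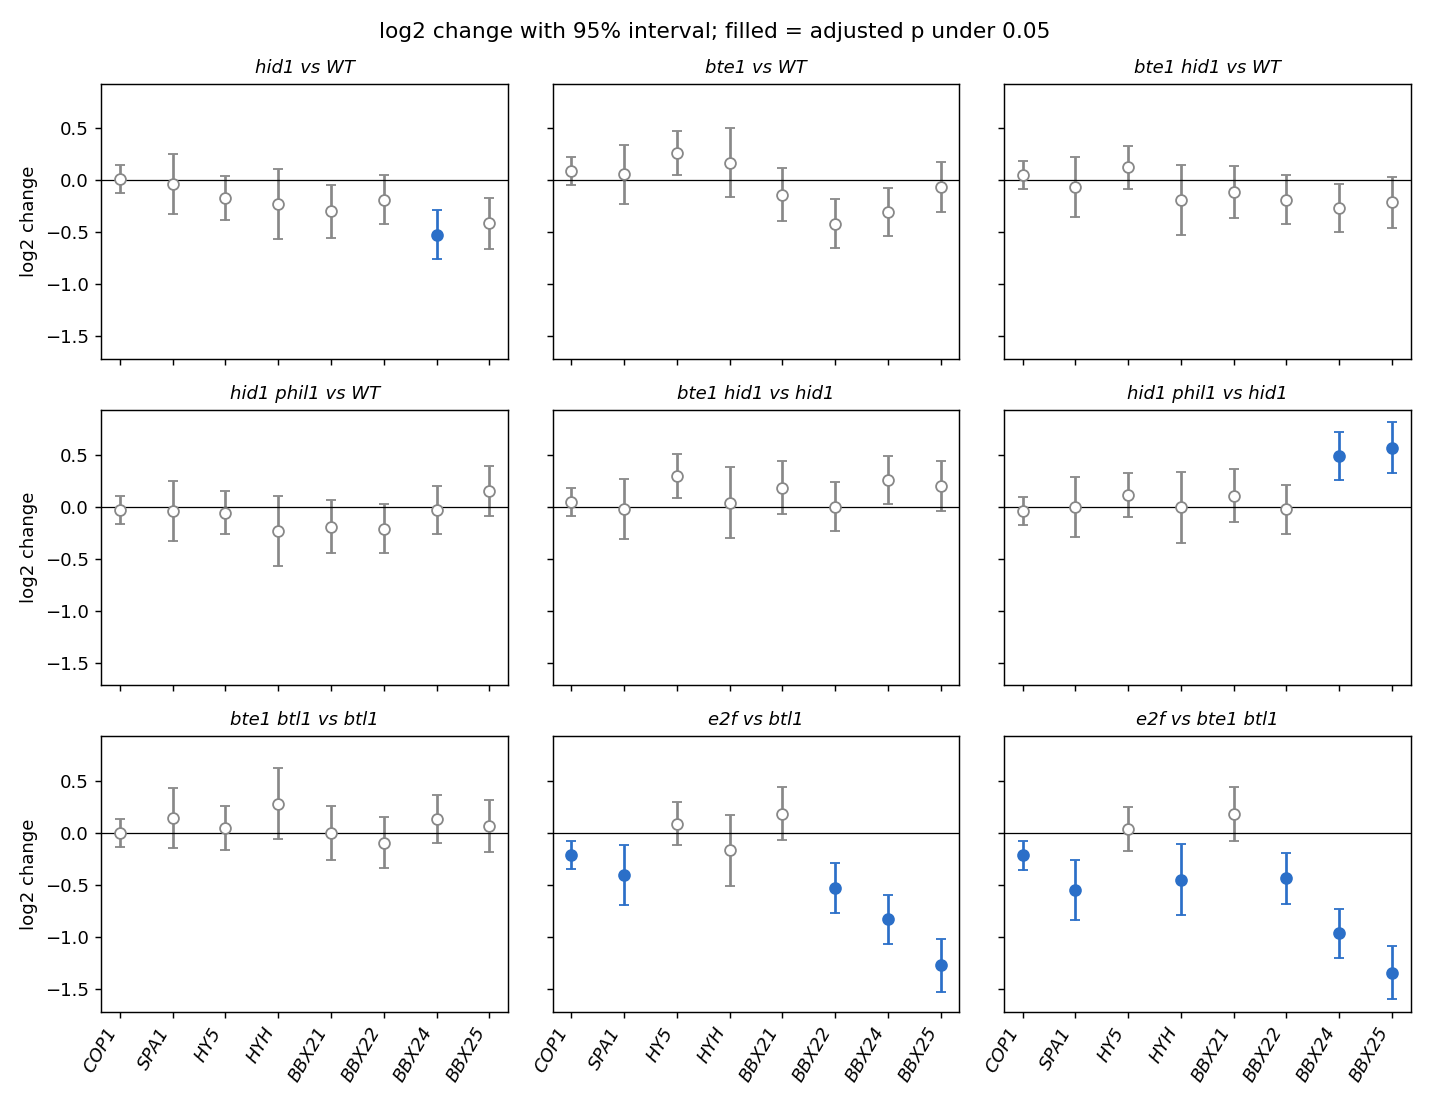
log2 change of each of the 8 genes (points, y axis) with its 95% interval (bars) in 9 of the 10 comparisons within a library set (bte1 hid1 against bte1, with no call, is not drawn), the first-named genotype over the second; filled points have an adjusted p under 0.05. BBX24 and BBX25 are filled on opposite sides of 0 in hid1 phil1 against hid1 (0.49 and 0.57) and in e2f against btl1 (-0.83 and -1.27).

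The bte1 mutation in the btl1 background came with no call among the 8 genes. Between bte1 btl1 and btl1, edgeR and DESeq2 called 0 of 8 and none had an unadjusted p under 0.05, where edgeR called 4.49% of all genes. The log2 changes ran from -0.09 for BBX22 to 0.28 for HYH. HYH had 52.3, 37.2 and 35.4 CPM in bte1 btl1 and 36.6, 33.2 and 32.8 CPM in btl1, the first bte1 btl1 library being the highest of the 24 (interval -0.06 to 0.63). COP1 and BBX21 were both at a log2 change of 0.00, with intervals of -0.14 to 0.14 and -0.26 to 0.26. The difference between the bte1 changes in the btl1 and WT backgrounds was called for 0 of 8 by either tool, beside 0.0685% of all genes. BBX24 alone was under 0.05 unadjusted (difference 0.44, interval 0.11 to 0.77, adjusted p = 0.547), beside 1299 of the 21897 genes tested.

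In e2f seedlings the 2 BBX repressors of HY5 fell furthest, BBX22 fell less, and HY5 and BBX21 were not called. The ubiquitin ligase genes COP1 and SPA1 were also called lower than in btl1 and bte1 btl1, and HYH than in bte1 btl1 only. Each of these calls of COP1, SPA1 and HYH was lost in some alternative fits. Against btl1, 5 of the 8 genes were lower and none higher, where 51.2% of all genes were called. Against bte1 btl1, 6 of 8 were lower and none higher, where 51.1% of all genes were called. The counts of 5 and 6 of 8 are thus near the background and are not read as a result about the 8 genes. The e2f libraries serve in both comparisons, and e2f was sequenced to more reads than bte1 btl1 and btl1. Its totals lay within the range of the first library set. Any difference in how these libraries were made or sequenced cannot be told apart from the e2f genotype.

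BBX25 had 27.7, 22.7 and 16.2 CPM in e2f, against 58.8, 52.3 and 57.5 CPM in bte1 btl1 and 53.8, 55.4 and 51.7 CPM in btl1. The e2f libraries were all at or below 27.7 CPM, and the other 6 were all at 51.7 CPM or more. The fold was 0.414 against btl1 (log2 change -1.27, SE 0.123, adjusted p = 1.31e-08) and 0.395 against bte1 btl1 (log2 change -1.34, SE 0.124, adjusted p = 5.63e-09). BBX24 had 91.6, 108 and 71.2 CPM in e2f, against 173, 172 and 182 CPM in bte1 btl1 and 157, 174 and 148 CPM in btl1. The groups did not overlap, and the fold was 0.563 against btl1 (log2 change -0.83, SE 0.114, adjusted p = 2.23e-06) and 0.513 against bte1 btl1 (log2 change -0.96, SE 0.114, adjusted p = 2.47e-07). Reads of AT2G31390, which overlaps BBX25, averaged 84.3 CPM by total counted reads in e2f, 82.8 CPM in bte1 btl1 and 96.4 CPM in btl1.

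BBX22 had 24.1, 28.3 and 23.8 CPM in e2f, against 28.9, 38.1 and 36.03 CPM in bte1 btl1 and 36.3, 37.8 and 35.8 CPM in btl1, with the lowest bte1 btl1 library just above the highest of e2f (log2 change -0.53, SE 0.117, adjusted p = 5.78e-04 against btl1; -0.44 and 0.00334 against bte1 btl1). The calls of BBX22, BBX24 and BBX25 in e2f held in all 11 alternative fits of each comparison. BBX21, the other activator, went the other way without a call, with 62.6, 72.6 and 65.6 CPM in e2f, 56.1, 59.9 and 60.5 CPM in bte1 btl1 and 61.8, 58.8 and 55.7 CPM in btl1. Its interval was -0.07 to 0.44 against btl1 (adjusted p = 0.218), although the libraries did not overlap.

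COP1 had 52.5, 51.2 and 45.2 CPM in e2f, against 59.6, 55.9 and 57.05 CPM in bte1 btl1 and 58.4, 55.2 and 58.7 CPM in btl1. The e2f libraries were all lower, by a fold of 0.864 against btl1 (log2 change -0.21, SE 0.0668, adjusted p = 0.0106) and with a log2 change of -0.21 against bte1 btl1 (adjusted p = 0.0105). Without e2f replicate 3 the log2 change of COP1 was -0.14 in both comparisons, with adjusted p of 0.104 against btl1 and 0.0981 against bte1 btl1. Fitted on the libraries of the compared genotypes alone, the call was lost in both comparisons (adjusted p = 0.0761 against btl1 and 0.0943 against bte1 btl1).

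SPA1, whose protein is the partner of COP1 in the ligase, had 129, 96.9 and 65.6 CPM in e2f, against 149, 135 and 142 CPM in bte1 btl1 and 118, 132 and 136 CPM in btl1. Replicate 1 of e2f lay within the range of btl1 and replicate 3 far below it. The log2 change was -0.40 against btl1 (SE 0.14, adjusted p = 0.0204) and -0.55 against bte1 btl1 (adjusted p = 0.00259). Without e2f replicate 3 it was -0.17 against btl1 (adjusted p = 0.147) and -0.32 against bte1 btl1, where the call held. The call against btl1 also ended without e2f replicate 2, btl1 replicate 2 or btl1 replicate 3 (0.0555, 0.0552 and 0.0696). With the compared genotypes alone in the fit, SPA1 was called in neither comparison (adjusted p = 0.167 against btl1 and 0.0701 against bte1 btl1).

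HYH had 34.8, 35.1 and 21.7 CPM in e2f and was called lower against bte1 btl1 only (log2 change -0.45, SE 0.164, adjusted p = 0.0271). That call rested on e2f replicate 3 and on bte1 btl1 replicate 1, without which the log2 change was -0.25 in each case (adjusted p = 0.18 and 0.215). It was also lost with the compared genotypes alone in the fit (adjusted p = 0.125). Against btl1 its interval was -0.51 to 0.18. HY5 had 22.8, 28.2 and 21.5 CPM in e2f, 27.04, 22.4 and 21.2 CPM in bte1 btl1 and 23.4, 22.1 and 22.5 CPM in btl1, overlapping in both comparisons. Its intervals were -0.12 to 0.30 against btl1 and -0.17 to 0.25 against bte1 btl1.

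The 5 green shoot markers, which encode Rubisco small subunits and light-harvesting proteins, were all called lower in e2f than in bte1 btl1 and btl1. Their summed level was 23188 to 26881 CPM in e2f, 39995 to 42574 CPM in bte1 btl1 and 35075 to 41768 CPM in btl1. Among the 8 root markers 2 were higher and 6 lower in e2f than in btl1, and 2 were higher and 2 lower than in bte1 btl1. Seed storage transcripts summed to 5.95 to 138 CPM in e2f, 1.298 to 78.7 CPM in bte1 btl1 and 0.465 to 87.7 CPM in btl1. The part of the green shoot difference in the e2f results of the 8 genes was not tested.

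In e2f BBX25 had fewer reads per BBX24 read than in bte1 btl1 and btl1, in a comparison too small to pass a threshold of 0.05. The number of BBX25 reads per BBX24 read, a ratio taken within each library and therefore free of library scaling, was chosen after the levels had been seen. It was 0.303, 0.211 and 0.227 in e2f, 0.34, 0.304 and 0.316 in bte1 btl1 and 0.343, 0.318 and 0.348 in btl1. The 3 e2f values were below all 6 others, and the exact two-sided permutation test gave p = 0.1 in each comparison, which is the smallest p that 3 against 3 libraries allow. In the first library set, WT replicate 2 (0.296) and bte1 hid1 replicate 1 (0.302) lay within the e2f range. In hid1 the ratio averaged 0.354 ± 0.0151 and in WT 0.328 ± 0.0278 (SD, n = 3 each), with overlap (exact permutation p = 0.3). Of the 4 ratios computed in 4 comparisons each, BBX22 reads per BBX21 read did not overlap between e2f and bte1 btl1 or btl1. It averaged 0.379 ± 0.0141 in e2f, 0.582 ± 0.0613 in bte1 btl1 and 0.624 ± 0.0322 in btl1 (exact permutation p = 0.1 in each comparison). The bte1 values of this ratio, 0.353, 0.404 and 0.344, overlapped with those of e2f. The same ratio was 0.479, 0.484 and 0.479 in hid1 and 0.445, 0.43 and 0.463 in WT, also without overlap (exact permutation p = 0.1). HY5 reads per HYH read were 0.656, 0.804 and 0.99 in e2f, all above the 0.517, 0.601 and 0.599 of bte1 btl1 (exact permutation p = 0.1), and overlapped between e2f and btl1 (p = 0.3). The other 8 tests, all with overlap, had exact p of 0.2 or more.

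**Figure D3:**
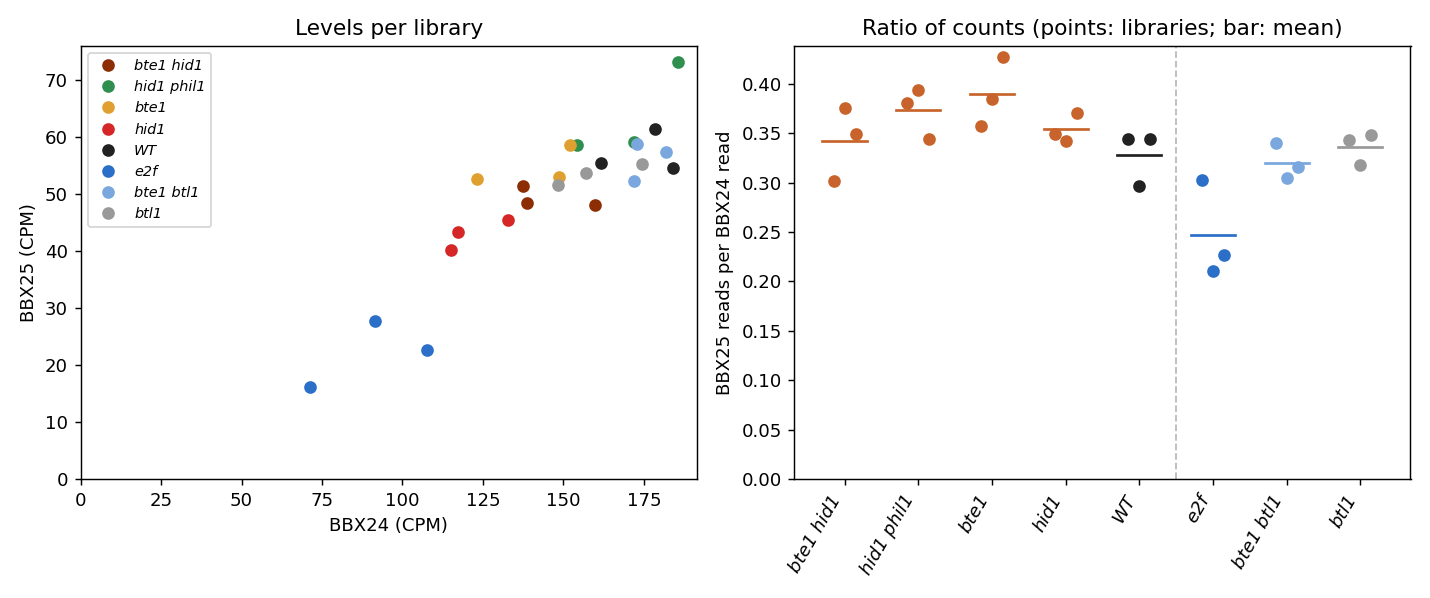
BBX25 against BBX24 in CPM, each point a library (left), and BBX25 reads per BBX24 read by genotype (right; points are libraries, bars means, the dashed line parts the 2 library sets). The e2f libraries lie at the low end of both genes, and their ratios, 0.211 to 0.303, are below the 0.304 to 0.348 of bte1 btl1 and btl1.

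Set against WT, HY5 and BBX21 were the 2 genes of the 8 called in all 3 genotypes of the second library set. HY5 averaged 24.2 ± 3.54 CPM in e2f, 23.5 ± 3.08 CPM in bte1 btl1, 22.7 ± 0.671 CPM in btl1 and 17.5 ± 1.12 CPM in WT. It was called higher in e2f (0.46), bte1 btl1 (0.42) and btl1 (0.37), values being log2 changes against WT. BBX21 averaged 66.9 ± 5.11 CPM in e2f, 58.8 ± 2.4 CPM in bte1 btl1, 58.8 ± 3.06 CPM in btl1 and 83.1 ± 6.99 CPM in WT. It was called lower in all 3 (-0.31 in e2f, -0.50 in bte1 btl1, -0.50 in btl1).

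These were the only 2 of the 8 genes called in btl1 and in bte1 btl1, beside 17.3% and 28.1% of all genes. In e2f 6 of 8 were called against WT, beside 52.2% of all genes: HY5 higher, and BBX21, SPA1 (-0.44), BBX22 (-0.54), BBX24 (-0.96) and BBX25 (-1.37) lower. In these comparisons the genotype and the library set cannot be told apart, and WT is shared by all 3. The HY5 call in btl1 ended without WT replicate 2 (adjusted p = 0.0698) or btl1 replicate 1 (0.0556). The BBX21 call in e2f ended without WT replicate 2 or 3 or e2f replicate 1 or 3 (0.0604 to 0.142). The SPA1 call in e2f ended without e2f replicate 3, with a log2 change of -0.22 (0.0709). It also ended with e2f and WT alone in the fit (0.137).

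Among the other 28 BBX genes, 24 were tested. In e2f 5 were higher and 10 lower than in btl1 (median log2 change -0.23, all genes -0.01), and 6 were higher and 12 lower than in bte1 btl1 (median -0.42, all genes 0.00). With 51.2% and 51.1% of all genes called in these comparisons, counts for this and the further lists are not read as particular to them. BBX30, which encodes a small B-box protein, had 3 to 4 reads per library in e2f and 48 to 72 in btl1, or 0.166 and 3.66 CPM (log2 change -4.42, SE 0.312, adjusted p = 3.95e-11). BBX15 averaged 98.1 CPM in e2f and 196 CPM in btl1 (log2 change -0.995, SE 0.0797, adjusted p = 3.67e-10). BBX19, known as a repressor of flowering, averaged 4.72 CPM in e2f and 12.6 CPM in btl1 (log2 change -1.42, SE 0.141, adjusted p = 1.46e-08). BBX30, BBX19 and BBX15 were likewise the 3 with the smallest adjusted p against bte1 btl1, with log2 changes of -4.36, -1.45 and -0.78.

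**Figure D4:**
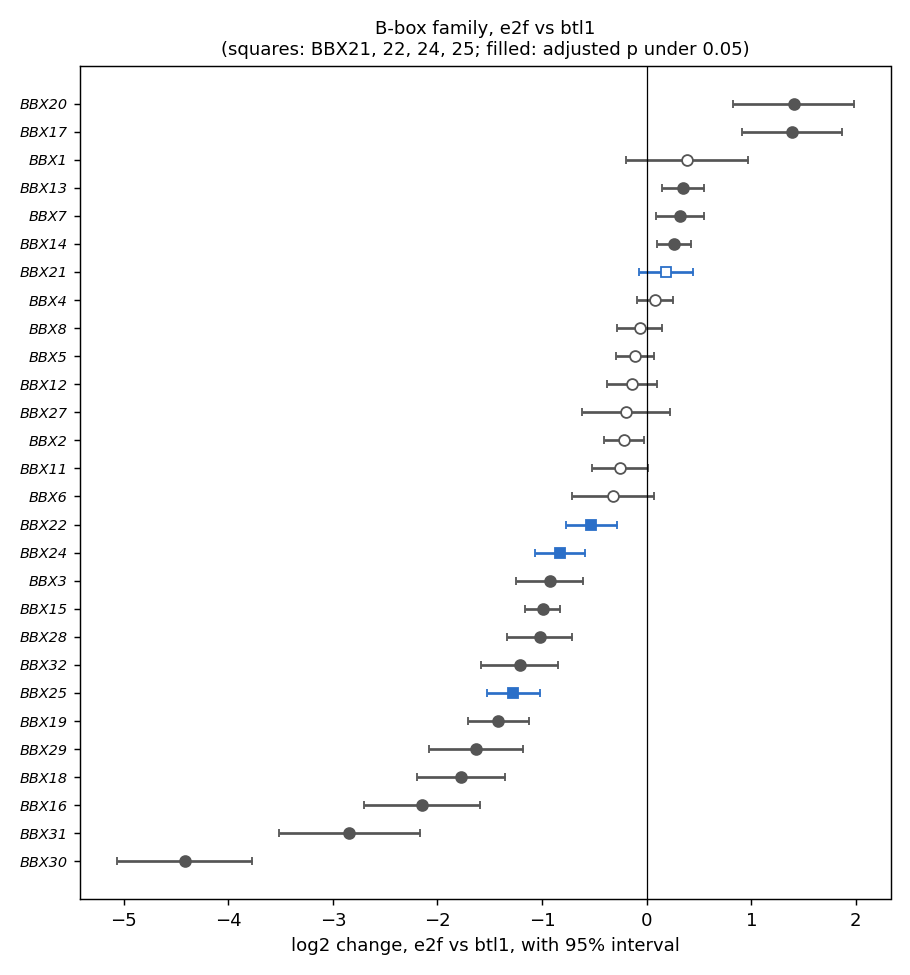
log2 change in e2f over btl1 (x axis, points) with 95% intervals (bars) for the BBX genes tested; squares are BBX21, BBX22, BBX24 and BBX25, circles the other BBX genes, and filled symbols have an adjusted p under 0.05. BBX25 (-1.27) lies below BBX24 (-0.83) and BBX22 (-0.53), and BBX30 (-4.42) is the lowest of the BBX genes tested.

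In hid1 against WT, 1 of these 24 was higher and 2 lower, beside 3.44% of all genes called. DESeq2 called 4 of the 24, and 8 had an unadjusted p under 0.05 in edgeR, as had 3448 of the 21897 genes tested. BBX3 averaged 48.7 CPM in hid1 and 81.9 CPM in WT (log2 change -0.75, adjusted p = 0.00601). BBX28 averaged 17.4 CPM in hid1 and 27.3 CPM in WT (log2 change -0.65), and BBX7 54.1 CPM in hid1 and 41.05 CPM in WT (0.40). In hid1 phil1 against hid1, 5 were higher and none lower, led by BBX3 (0.90), BBX2 (0.45) and BBX28 (0.66). These 5 of 24 stand beside 6.45% of all genes. DESeq2 called 7 there, and 14 had an unadjusted p under 0.05 in edgeR, as had 4619 of all genes tested. BBX3 and BBX28 thus were, like BBX24, lower in hid1 than in WT and higher in hid1 phil1 than in hid1, 2 comparisons that share the hid1 libraries. BBX2 rose in bte1 against WT (0.54) and in bte1 btl1 against btl1 (0.45), and was lower in bte1 hid1 than in bte1 (-0.51). In bte1 btl1 BBX8 was also lower than in btl1 (-0.39), and in bte1 hid1 BBX3 was higher than in hid1 (0.54). Of the 24, 1 was called in bte1 against WT (all genes 2.52%) and 2 in bte1 btl1 against btl1 (4.49%). In bte1 hid1, 1 was called against bte1 (0.224%) and 1 against hid1 (7.43%). The list was chosen with earlier results known, so these counts are not read as particular to it.

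Of 9 further genes of the COP1 and CUL4 ligase, 1 was higher and 5 lower in e2f than in btl1, and likewise 1 and 5 against bte1 btl1, beside 51.2% and 51.1% of all genes called. DDB1B, a linker of the CUL4 ligase, rose (log2 change 0.63, SE 0.0814, adjusted p = 8.51e-07), whereas the SPA1 relatives SPA3 (-0.60) and SPA2 (-0.24) fell, values against btl1. RBX1A, the RING subunit of cullin ligases, fell against bte1 btl1 (-0.42). In the comparisons within the first library set and in bte1 btl1 against btl1, edgeR and DESeq2 called none of these 9 genes, and at most 1 had an unadjusted p under 0.05.

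The COP9 signalosome removes the NEDD8 tag from cullin ligases, and 10 of its genes were tested. In e2f 5 were higher and 1 lower than in btl1, beside 51.2% of all genes called, with CSN2 (0.37) and CSN1 (0.34) among those that rose and CSN5B (-0.71) the one that fell. Against bte1 btl1, 3 were higher and CSN5B was lower (-1.39), beside 51.1% of all genes called. CSN5B, one of 2 genes for the catalytic subunit, was the single member of this list called by edgeR in bte1 against WT, where DESeq2 called 2, at 6.51 CPM in bte1 and 4.08 CPM in WT (log2 change 0.67, SE 0.151, adjusted p = 0.0111). It was also the single one called higher in bte1 hid1 against hid1 (0.83) and against WT (0.67). These calls of 1 of 10 stand beside 2.52% of all genes in bte1 against WT. In bte1 hid1 the shares of all genes were 7.43% against hid1 and 2.40% against WT. In bte1 btl1 against btl1 CSN5B (0.69), CSN3 (0.31) and CSN6B (0.46) rose, 3 of 10 beside 4.49% of all genes. The list was chosen with earlier results known, so these calls are not independent evidence.

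Of 18 genes known as direct or close targets of HY5, 2 were higher and 7 lower in e2f than in btl1 (median log2 change -0.36), and 2 higher and 6 lower than in bte1 btl1 (median -0.26). These are 9 and 8 of 18, no larger a share than the 51.2% and 51.1% of all genes called. RBCS1A and LHCB1.3 are in this list and also among the green shoot markers, so their fall in e2f is counted in both. IAA14 and IAA7, auxin-response repressors, fell by 1.86 and 0.84 on the log2 scale in e2f against btl1, and MYB12, an activator of flavonol synthesis, by 1.33. RUP2, a repressor of UV-B signalling, fell by 1.03 against bte1 btl1. In hid1 ABI5, a bZIP factor of abscisic acid responses, averaged 2.81 CPM, against 1.31 CPM in WT (log2 change 1.10, SE 0.239, adjusted p = 0.00881). IAA7 was lower in hid1 than in WT (-0.37), and PAP1, an activator of anthocyanin synthesis, was higher at 1.52 CPM in hid1 and 0.357 CPM in WT (log2 change 2.05, SE 0.579, adjusted p = 0.0496). IAA14 (0.64) and IAA7 (0.40) were higher in hid1 phil1 than in hid1, and ABI5 was higher in bte1 hid1 than in WT (0.89). Of the 18, edgeR called 3 in hid1 against WT and 2 in hid1 phil1 against hid1, beside 3.44% and 6.45% of all genes. It called 1 in bte1 hid1 against WT, beside 2.40%. DESeq2 called 5, 3 and 1 in the same order. HY5 itself was not called in any of these comparisons.

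Of 5 other substrates of COP1, 4 were tested, and 3 of them were called in e2f against btl1 and against bte1 btl1, beside 51.2% and 51.1% of all genes. In e2f HFR1, a light-signalling bHLH factor, and GI, a clock protein, were lower than in btl1 (-1.16 and -0.72) and than in bte1 btl1 (-1.69 and -0.70). ELF3, a clock protein, was higher, by 0.25 and 0.38 on the log2 scale. HFR1 had 31 to 55 reads per library in e2f and 60 to 77 in btl1, so its fold is the least precise of the 3.

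The closest profiles over the 24 libraries, after the mean of each library set had been removed, were found by Pearson's r of log2 CPM, with a prior of 1 CPM, among genes with a symbol and a mean of at least 1 CPM. The points share libraries and library depth, and the values are descriptions. Genotype means were not removed, so differences between genotypes, among them those of e2f, enter each r. BBX24 was nearest to MYBL2, a repressor of anthocyanin synthesis (0.964), and LHCB2.1, a light-harvesting protein (0.964). BBX25 was nearest to GLK2, an activator of chloroplast genes (0.972), and PGR5, a protein of photosynthetic electron flow (0.967). BBX22 was nearest to PIF4, a light-signalling bHLH factor (0.893), and PRR7, a clock protein (0.879), and BBX21 to ATG8E, an autophagy protein (0.894), and RLP54 (0.866). COP1 was nearest to PnsB2 (0.915) and NAPRT2 (0.886), and SPA1 to INV-E (0.942) and LYC, a carotenoid enzyme (0.928). HYH was nearest to ATH13 (0.877) and ATCAD4 (0.872), and HY5 to pde191 (0.774) and SULTR3;1 (0.682), the lowest values of the 8. Between the 8 genes themselves r was 0.923 for BBX24 with BBX25, 0.768 for COP1 with SPA1, 0.501 for HY5 with HYH and 0.237 for BBX21 with BBX22.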

How the data were processed

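Poly(A) RNA of whole seedlings was sequenced in 24 libraries. Per the submitters' processing notes, reads were handled with fastp, HISAT2 2.1.0 and SAMtools 1.6 on TAIR10; the counting tool, its annotation and its use of strand are not given in the sources used here. The authors deposited raw whole-number read counts per gene, which were tested, and FPKM values (per kilobase and scaled by library; the unit is given per the file headers), used only to compare levels between genes within a library set.

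From the counts, edgeR 4.0.16 in R 4.3.3 fitted all 24 libraries by genotype with TMM factors (0.922 to 1.03), the filterByExpr filter (21897 genes kept, 11715 features removed) and robust quasi-likelihood dispersions, and tested 13 pairwise contrasts and 2 differences of contrasts, with Benjamini-Hochberg adjustment within each over all genes and a threshold of 0.05. CPM use the TMM-adjusted totals. The share of all genes whose libraries did not overlap was not counted for any contrast, so a lack of overlap only describes the libraries. The tests were also run on counts simulated with the same spread for every gene and genotype. The e2f replicates here differed more than those of most genotypes, so that run does not vouch for the e2f calls. Alternatives were RLE factors, no filter, DESeq2 1.42.0, a fit on only the genotypes compared, the replicate number as a block, and leaving out each library. With 3 replicates per genotype and counts of 287 or more per gene, the spread between replicates limits the precision. Deviations of same-numbered libraries correlated at 0.141 to 0.287 in bte1 hid1 and bte1, the only contrast in which every value passed 0.1; there the block changed no call of the 8 genes.

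The 8 genes and all gene lists (ligase partners, COP9 signalosome, other BBX genes, HY5 targets, other COP1 substrates, and seed storage, root and green shoot markers) were chosen with earlier results of these data known, so no list is independent evidence. From each list the text names up to 3 called genes with the smallest adjusted p per contrast within a library set, and for each of the 8 genes the 2 most similar profiles. Ratios of reads were compared by exact permutation tests (scipy 1.17.1). Identifiers of 28932 features matched RefSeq's TAIR10.1 annotation, from which names, loci and upstream windows were read.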

Additional observations from a re-analysis of the deposited data

How the results depend on the processing

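Of the 24 calls of a gene in a contrast, among 120, 14 held in every alternative, and no direction was reversed. With only the genotypes compared in the fit, the number of the 8 genes called was 3 in e2f against btl1 and 3 in e2f against bte1 btl1 (COP1 and SPA1, and HYH in the second, were lost), 3 in hid1 against WT (BBX21 and BBX25 added), and 1 each in bte1 hid1 against hid1 (HY5, adjusted p = 0.0418) and in the difference of bte1 changes between hid1 and WT (BBX24, 0.036). DESeq2 called 2 in hid1 against WT (BBX25 added). In bte1 against WT, 1 was called (BBX22) with RLE factors, no filter, DESeq2, only the genotypes compared and the replicate block. The causes were not tested.

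Leaving out each library in turn gave 0 to 1 calls in hid1 against WT, 1 to 2 in hid1 phil1 against hid1, 3 to 5 in e2f against btl1, 4 to 6 in e2f against bte1 btl1, 1 to 2 in btl1 against WT, 2 to 3 in bte1 btl1 against WT and 4 to 6 in e2f against WT. It gave 0 in each of the other 8 contrasts. Outside bte1 hid1 against bte1 the replicate numbers did not pair the libraries in every contrast (correlations from -0.117 to 0.348), and the replicate block changed no call but that of BBX22 in bte1 (0.045).

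Over all genes the number called differed by over 1.5 times under DESeq2 in hid1 phil1 against WT (52, against 25), bte1 hid1 against bte1 (90, against 49) and the differences of bte1 changes (247, against 75, for hid1; 51, against 15, for btl1). With only the genotypes compared it was 874, against 551, in bte1 against WT, 651, against 1413, in hid1 phil1 against hid1, 74, against 49, in bte1 hid1 against bte1, and 356, against 75, and 27, against 15, for the differences. Libraries of bte1 btl1 and btl1 had fewer reads, and the 3 replicates of a genotype limit the detection of small changes: the interval of the log2 change in hid1 against WT was -0.13 to 0.15 for COP1 and -0.57 to 0.11 for HYH.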
